A study of Mus musculus with 6 samples.

Results

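The genes described here encode the MHC class I and class II presentation machinery. They are 10 genes chosen by name from the table of raw read counts: *H2-Aa*, *H2-Ab1* and *H2-Eb1* (class II chains), *Cd74* (invariant chain), *H2-DMa* and *H2-DMb1* (peptide exchange), *Ciita* (class II transactivator), and *H2-K1*, *H2-D1* and *B2m* (class I). The table held 55573 genes, of which 20241 had enough counts to be tested, and all 10 were among them. The study asked how overexpression of *Ezh2*, the histone methyltransferase of Polycomb complex PRC2, acts on retinal ganglion cells (RGCs) after injury to their axons.

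Adult C57BL/6J mice received AAV2-*GFP* (control) or AAV2-*Ezh2* in the vitreous, the optic nerve was crushed 2 weeks later, and retinal cells were sorted 3 days after the crush. The sort took live CD90.2-positive cells after an antibody block of CD16 and CD32, and total RNA was sequenced in 3 libraries per group. Every library therefore came from an injected and injured retina, and uninjured or uninjected retinas were not analysed here. AAV2 in the vitreous is not restricted to one cell type, and T cells carry CD90 as well as RGCs. The labels do not say whether the libraries came from separate animals, so P values measure the spread between these libraries only.

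MHC class II molecules carry peptides from endosomes to CD4+ T cells. An alpha and a beta chain assemble with the invariant chain CD74, cathepsins degrade that chain, and H2-DM then helps to exchange its last fragment for a peptide. Class II genes are transcribed mainly in dendritic cells, B cells and activated macrophages and microglia, under the coactivator CIITA. Class I molecules, a heavy chain with beta-2 microglobulin, carry cytosolic peptides to CD8+ T cells and are made by most nucleated cells, though weakly by neurons at rest.

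Class II transcription rests on promoter elements called the X and Y boxes, which RFX, CREB and NF-Y proteins bind and where CIITA is recruited, and class I promoters hold related elements next to a kappa B site. Promoter sequences from RefSeq (build GRCm38.p6) were matched by symbol for 7 of the 10 genes. The windows shown run from 180 bases before to 20 bases after the annotated start, 5′ to 3′ on the strand of the gene. They are shown as promoter regions of class II and class I genes, and binding of CIITA to them was not measured. Capitals mark matches, on either strand, to GATTGG (Y box), TAGNAAC (X box), TGACG (CRE core) and GGGGATTC (kappa B). These 4 strings were kept out of 13 tried after the sequences had been seen.
*H2-Aa* (chr17:34287804-34288003, minus strand): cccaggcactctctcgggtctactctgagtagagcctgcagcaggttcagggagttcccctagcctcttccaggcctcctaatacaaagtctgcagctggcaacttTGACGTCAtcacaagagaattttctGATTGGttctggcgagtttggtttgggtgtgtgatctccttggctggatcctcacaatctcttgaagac
*H2-Eb1* (chr17:34305687-34305886, plus strand): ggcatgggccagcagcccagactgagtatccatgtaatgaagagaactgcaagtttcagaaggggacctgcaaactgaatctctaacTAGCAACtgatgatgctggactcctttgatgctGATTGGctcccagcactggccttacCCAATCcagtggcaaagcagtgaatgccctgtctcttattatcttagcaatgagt
*H2-DMb1* (chr17:34153011-34153210, plus strand): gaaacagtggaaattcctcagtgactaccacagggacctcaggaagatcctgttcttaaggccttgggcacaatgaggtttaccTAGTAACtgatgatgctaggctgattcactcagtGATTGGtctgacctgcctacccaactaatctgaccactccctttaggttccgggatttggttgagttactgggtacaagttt
*H2-K1* (chr17:34000314-34000513, minus strand): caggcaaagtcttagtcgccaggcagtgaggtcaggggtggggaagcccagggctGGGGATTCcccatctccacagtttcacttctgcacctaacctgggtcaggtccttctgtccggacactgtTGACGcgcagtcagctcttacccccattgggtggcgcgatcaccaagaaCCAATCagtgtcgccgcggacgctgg
*H2-D1* (chr17:35262914-35263113, plus strand): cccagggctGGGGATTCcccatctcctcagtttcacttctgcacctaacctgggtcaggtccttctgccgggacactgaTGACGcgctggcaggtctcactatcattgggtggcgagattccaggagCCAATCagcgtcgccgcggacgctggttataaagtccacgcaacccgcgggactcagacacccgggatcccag
*B2m* (chr2:122147507-122147706, plus strand): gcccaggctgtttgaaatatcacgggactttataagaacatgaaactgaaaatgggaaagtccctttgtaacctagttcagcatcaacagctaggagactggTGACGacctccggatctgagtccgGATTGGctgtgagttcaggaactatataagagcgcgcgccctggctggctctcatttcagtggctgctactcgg

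Because the strings were kept after the sequences had been seen, and windows without a match are not shown, the number of windows with a match is a description only. Over the 32851 promoters in the RefSeq table, 12.9% held the Y box string in a window of this length. The shares were 8% for the X box string, 16.5% for the CRE core and 0.466% for the kappa B string. *H2-Eb1* and *H2-DMb1* held the X box string at 93 and 96 bases before the start. Among the windows shown, the kappa B string stood in *H2-K1* and *H2-D1* only, the pair of classical class I heavy chain genes. *H2-K1* has 2 start sites in the table, and the one shown was picked after both had been seen. *H2-DMa* held none of the 4 strings in the windows of its 2 starts, and *H2-Ab1*, *Ciita* and *Cd74* had no entry. In *H2-Aa* and *B2m* the Y box string stood 49 and 54 bases before the start, with a CRE core at 74 and 78. In *H2-K1* and *H2-D1* it stood on the opposite strand at 6 and 53 bases, with the CRE core at 55 and 101. Whether the string in those heavy chain genes is their Y box was not tested. A match is a description of letters and not evidence of binding.

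The libraries held 30569933 to 35971192 counts. *Ezh2* was at 28.8, 34.6 and 33.0 CPM (counts scaled to a common library total) in GFP replicates 1 to 3, and at 78.0, 65.3 and 104.8 CPM in Ezh2 replicates 1 to 3. The study left out 1 Ezh2 library, inferred here to be replicate 3, so the main comparison used 5 libraries and Ezh2 replicate 3 is given apart. That library lay far from the others of its group: the chi-square statistic per gene was 55.5 and 62.9 against Ezh2 replicates 1 and 2, and 5.27 to 8.13 for the other pairs within groups. The RGC label was checked against defining markers. *Pou4f2* stood at 0 to 0.0932 CPM and *Pou4f1* and *Pou4f3* were below 1 CPM in every library. The other 7 of the 10 RGC markers were present: *Thy1*, the sort antigen, was at 87.2 to 114 CPM and *Rbpms* at 16.4 to 20.8 CPM. The RGC list summed to 127 to 132 CPM in the GFP libraries, 161 and 149 CPM in Ezh2 replicates 1 and 2, and 166 CPM in Ezh2 replicate 3, whereas the Müller glia markers summed to 9878 to 15798 CPM over the libraries. In such bulk samples, fewer cells of a type and less RNA per cell cannot be told apart.

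The MHC genes were abundant. Per kilobase of merged exon (GENCODE M21), mean levels in the GFP group were 1222 ± 48.8 CPM per kb for *B2m* and 792 ± 49.6 for *Cd74* (SD, n = 3 here and in the next sentences). The heavy chain genes *H2-K1* and *H2-D1* followed at 479 ± 10.9 and 427 ± 10.2 CPM per kb. The chains *H2-Eb1*, *H2-Ab1* and *H2-Aa* were at 305 ± 16.7, 231 ± 11.8 and 188 ± 10.3 CPM per kb. *H2-DMb1* and *H2-DMa* were far lower, at 23.6 ± 2.62 and 18.3 ± 0.837 CPM per kb, and *Ciita* was lowest at 9.10 ± 0.393. In this order each gene differed from the next by more than the SDs of the pair. The order also rests on the merged exon lengths, and the SDs do not measure their uncertainty. By mean CPM in the GFP group, for example, *H2-Aa* (714) stood above *H2-Ab1* (593) and *H2-Eb1* (593). *H2-DMa* (63.2) likewise stood above *H2-DMb1* (39.7).

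None of the 10 genes was called, that is, none changed by more than 1.5-fold with an adjusted p below 0.05, in either direction. Over all tested genes 3.73% were called, 2.45% higher and 1.27% lower. All 10 fitted changes were nevertheless above 0, with a median log2 fold change of 0.19 against −0.0078 over all tested genes, and the 95% interval of each ended below the 1.5-fold line at 0.58. Without the fold threshold, 5 of the 10 had an adjusted p under 0.05, all upward (*Ciita*, *H2-Aa*, *H2-Ab1*, *Cd74* and *H2-D1*), where 9.38% of tested genes did so upward and 7.07% downward. Ezh2 replicates 1 and 2 both lay above every GFP library for 8 of the 10 genes and below for 0, against 21.5% and 23.4% of tested genes.

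**Figure D1:**
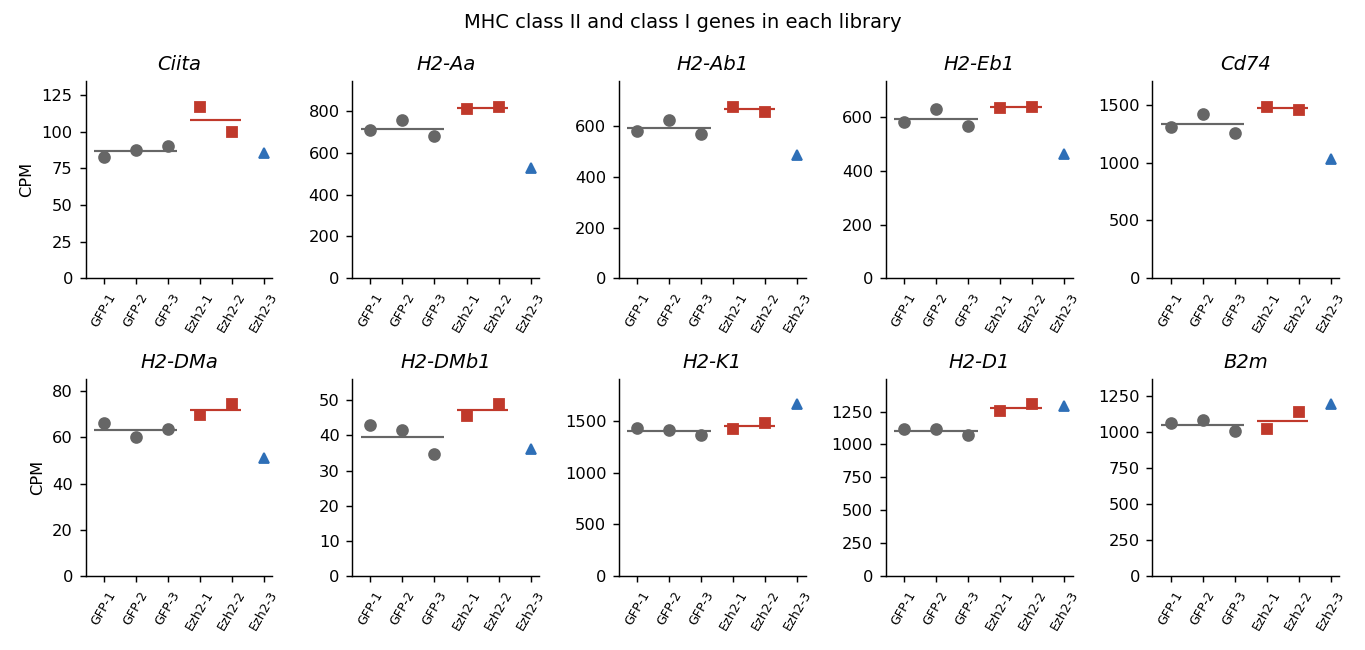
Level of each gene in each library, in CPM on axes from 0, with lines at the means of GFP replicates 1 to 3 (grey circles) and Ezh2 replicates 1 and 2 (red squares). The blue triangle is Ezh2 replicate 3, which lies below the GFP libraries for *H2-Aa*, *H2-Ab1*, *H2-Eb1*, *Cd74* and *H2-DMa* and above them for *H2-K1*, *H2-D1* and *B2m*.

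*Ciita* (ENSMUSG00000022504, chromosome 16, 10480059 to 10528418, GRCm38) encodes the coactivator that switches class II genes on. It reached 82.8, 87.5 and 90.2 CPM in the GFP libraries, 117 and 99.7 CPM in Ezh2 replicates 1 and 2, and 85.6 CPM in Ezh2 replicate 3. Both Ezh2 libraries of the main comparison exceeded the GFP libraries, and Ezh2 replicate 3 lay among the GFP values. The log2 fold change was 0.33 ± 0.065 (SE), or 1.26-fold, with an adjusted p of 0.0022 (edgeR quasi-likelihood test, used throughout). With Ezh2 replicate 3 included it was 0.25 with an adjusted p of 0.167. *Ciita* shares 329 exon bases with the antisense gene *Dexi*, and whether the counting used strand is not given in the sources used here.

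The class II chain genes lie together on chromosome 17. *H2-Aa*, the alpha chain of I-A (34282744 to 34287823, minus strand), was at 709, 756 and 679 CPM in the GFP libraries, at 809 and 820 CPM in Ezh2 replicates 1 and 2, and at 526 CPM in Ezh2 replicate 3. Its log2 fold change was 0.20 ± 0.051 with an adjusted p of 0.0124. *H2-Ab1*, the beta chain of I-A (34257689 to 34269419), was at 583, 627 and 568 CPM, then 677 and 657 CPM, and 485 CPM in Ezh2 replicate 3. Its log2 fold change was 0.18 ± 0.050 with an adjusted p of 0.0201. With Ezh2 replicate 3 included, the log2 fold changes of *H2-Aa* and *H2-Ab1* were 0.04 and 0.07, with adjusted p of 0.875 and 0.720. Each had an adjusted p under 0.05 in 11 of 17 alternative fits. Both genes of I-A were thus higher by less than 1.5-fold in Ezh2 replicates 1 and 2, and both lay below every GFP value in Ezh2 replicate 3. *H2-Eb1*, the beta chain of I-E (34305867 to 34316674), was at 582, 630 and 568 CPM, then 637 and 640 CPM, and 463 CPM in Ezh2 replicate 3. Its log2 fold change of 0.12 ± 0.051 had an adjusted p of 0.144. The gap between the highest GFP library and the lower Ezh2 library was small for this gene. *H2-Ea-ps*, the alpha chain partner of I-E, had 0 counts in every library, which allows up to 0.0834 to 0.0981 CPM (3 counts, counting error only). C57BL/6 mice carry that gene as a pseudogene.

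*Cd74*, the invariant chain that occupies the peptide groove during assembly (chromosome 18, 60803848 to 60812652), was at 1308, 1422 and 1260 CPM in the GFP libraries, at 1483 and 1454 CPM in Ezh2 replicates 1 and 2, and at 1030 CPM in Ezh2 replicate 3. The log2 fold change was 0.15 ± 0.051 with an adjusted p of 0.0496, at the edge of the threshold. It was under 0.05 in 8 of 17 alternative fits, and with Ezh2 replicate 3 included the log2 fold change was 0.03 with an adjusted p of 0.908. *H2-DMa* (chromosome 17, 34119541 to 34139101) was at 66.0, 60.2 and 63.4 CPM, then 69.6 and 74.2 CPM, and 51.0 CPM in Ezh2 replicate 3. *H2-DMb1* (chromosome 17, 34153072 to 34160230) was at 42.95, 41.4 and 34.7 CPM, then 45.5 and 48.8 CPM, and 36.03 CPM in Ezh2 replicate 3. For these 3 genes Ezh2 replicates 1 and 2 lay above every GFP library. The *H2-DM* genes had log2 fold changes of 0.20 ± 0.066 and 0.26 ± 0.088 and adjusted p of 0.0505 and 0.0556. Which side of 0.05 they took varied with the processing. Over 17 alternative fits the adjusted p ran from 0.0299 to 0.792 for *H2-DMa*, under 0.05 in 9 of them, and from 0.0076 to 0.423 for *H2-DMb1*, under 0.05 in 7. *H2-DMa* shares 360 exon bases with the antisense gene *Brd2*.

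The class I genes did not move together. *H2-D1* (chromosome 17, 35262730 to 35267499) was at 1114, 1120 and 1072 CPM in the GFP libraries, at 1252 and 1304 CPM in Ezh2 replicates 1 and 2, and at 1291 CPM in Ezh2 replicate 3. All 3 Ezh2 libraries exceeded all 3 GFP libraries. The log2 fold change was 0.22 ± 0.046, or 1.17-fold, with an adjusted p of 0.0027, and it was 0.26 with an adjusted p of 0.0437 in all 6 libraries. *H2-K1* (chromosome 17, 33996017 to 34000347, minus strand) was at 1433, 1415 and 1371 CPM, then 1425 and 1478 CPM, and 1663 CPM in Ezh2 replicate 3. *B2m* (chromosome 2, 122147686 to 122153083) was at 1061, 1087 and 1005 CPM, then 1019 and 1139 CPM, and 1192 CPM in Ezh2 replicate 3. For both the groups overlapped in the main comparison, with log2 fold changes of 0.06 ± 0.045 and 0.05 ± 0.056 and adjusted p of 0.447 and 0.617. Their 95% intervals ran from −0.04 to 0.15 and from −0.07 to 0.17. *H2-K1*, *H2-D1* and the *H2-Q* and *H2-T* genes are related paralogs, so reads may be split between them and their counts are uncertain to that extent. How alike their sequences are was not measured.

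**Figure D2:**
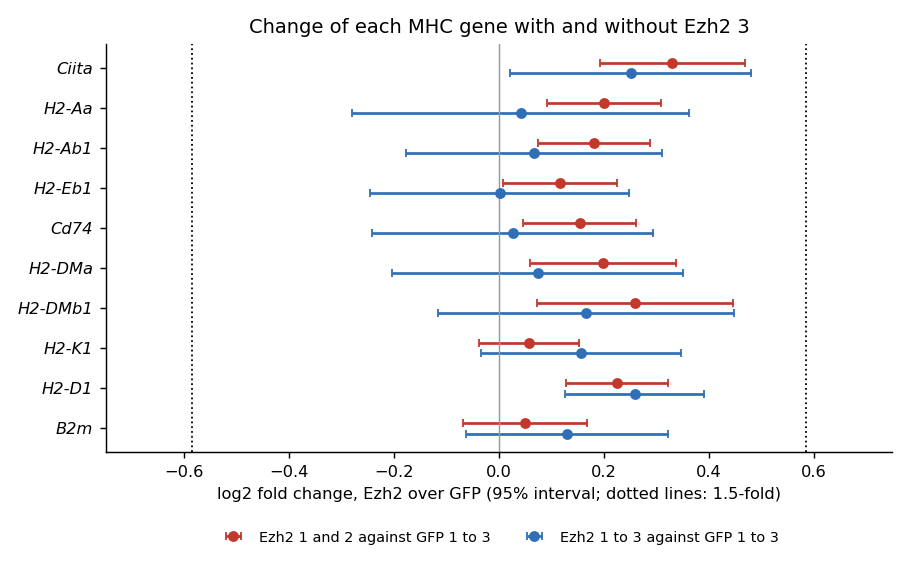
Log2 fold change of each gene, Ezh2 over GFP, with 95% intervals, from Ezh2 replicates 1 and 2 (red) and from all 3 Ezh2 libraries (blue) against GFP replicates 1 to 3. Each interval ends inside the dotted 1.5-fold lines, and the class II estimates lie nearer 0 in all 6 libraries than in 5.

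Among the 10 genes, Ezh2 replicate 3 lay in opposite directions for most class II genes and for the class I genes. It was below every GFP library for 5 class II genes, at 73.6% to 81.8% of the GFP mean, and above every GFP library for the 3 class I genes, at 113% to 118%. Over all tested genes 47.1% were below and 31.9% above in that library, so both counts are near the shares over all genes. Of 5 other class II genes, 1 lay above every GFP library and 3 below in that library, and *H2-Ea-ps* had 0 counts throughout. Of 14 genes of class I peptide supply and loading, 12 lay above and 0 below. Of 12 nonclassical class I genes, 4 lay above and 5 below, so the split did not hold for that list. In all 6 libraries none of the 10 genes was called, against 2.41% of the 19732 genes tested (1.6% higher, 0.811% lower). *H2-D1* alone kept an adjusted p under 0.05 there, and the median log2 fold change was 0.10.

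Ratios within a library do not depend on its total. The geometric mean of the class II chains was 0.470 to 0.482 of *Cd74* in all 6 libraries, although *Cd74* itself varied 1.44-fold. *H2-K1* was 1.26 to 1.29 times *H2-D1* in the GFP libraries, 1.14 and 1.13 times in Ezh2 replicates 1 and 2, and 1.29 times in Ezh2 replicate 3. Against *B2m*, the class II chains were at 0.586 to 0.615 in the GFP libraries, 0.691 and 0.616 in Ezh2 replicates 1 and 2, and 0.411 in Ezh2 replicate 3. The balance of class II chains and invariant chain was thus held within a narrow range, while that of class II chains to *B2m* was not. These are descriptions, since 3 against 2 libraries cannot reach a small permutation P.

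**Figure D3:**
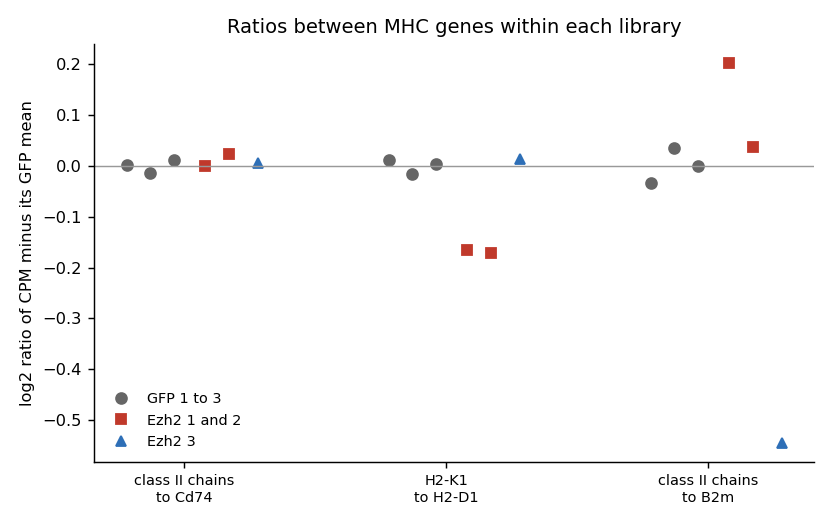
Log2 ratios of CPM within each library, minus the GFP mean of the ratio, for GFP replicates 1 to 3 (grey), Ezh2 replicates 1 and 2 (red) and Ezh2 replicate 3 (blue). The ratio of class II chains to *Cd74* stays near 0 in every library, and the ratio to *B2m* is lowest in Ezh2 replicate 3.

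Levels of other cell types' markers moved between the same libraries. Leukocyte markers (*Ptprc*, *Laptm5*, *Coro1a*, *Cd53*, *Cd52*) summed to 902 to 1012 CPM in the GFP libraries, 1299 and 1313 CPM in Ezh2 replicates 1 and 2, and 1957 CPM in Ezh2 replicate 3. Microglia markers summed to 1253 to 1395 CPM, then 1562 and 1634 CPM, and were at 1109 CPM in Ezh2 replicate 3, so the sum, as 5 of the class II genes did, lay above the GFP libraries in the first pair and below them in the third library. Of its 10 genes, 5 lay above every GFP library in Ezh2 replicates 1 and 2 and 1 below. *Tmem119* and *P2ry12* lay among the GFP values there, at 93.8 and 93.2 CPM and at 25.5 and 26.3 CPM. Macrophage and monocyte markers, led by *Lyz2*, summed to 559 to 638 CPM, then 1767 and 2253 CPM, and 1488 CPM in Ezh2 replicate 3. T cell markers summed to 458 to 485 CPM, then 603 and 574 CPM, and 1128 CPM. Called higher were 1 of 5 leukocyte, 1 of 10 microglia (*Sall1* was called lower), 4 of 8 tested macrophage and 0 of 10 T cell markers. The shares over all tested genes were 2.45% higher and 1.27% lower. Without the fold threshold, 5 of 5 leukocyte and 10 of 10 T cell markers had an adjusted p under 0.05 upward. So did 5 of 10 microglia and 7 of 8 tested macrophage markers, with 1 microglia marker downward. Without that threshold the shares over all tested genes were 9.38% upward and 7.07% downward. B cell markers summed to 41.6 to 44.8 CPM in the GFP libraries, 61.2 and 65.5 CPM in Ezh2 replicates 1 and 2, and 45.7 CPM in Ezh2 replicate 3, and dendritic cell markers to 195 to 223 CPM, then 215 and 203 CPM, and 249 CPM. *Ccr7* alone was at 136 CPM in that last library. The B cell markers *Ms4a1* and *Cd79a* ranged between 3.00 and 6.43 CPM, and of the dendritic cell markers *Flt3* and *Zbtb46* ranged between 13.5 and 28.1 CPM. The macrophage marker *Cd163* was at 0 to 0.389 CPM. In the other lists 1 of 10 dendritic cell, 1 of 9 B cell, 3 of 6 NK cell, 1 of 8 tested RGC, 1 of 4 astrocyte and 1 of 5 rod markers were called higher, and 0 of 6 plasma cell, 0 of 6 endothelial and 0 of 6 Müller glia markers were called. Müller glia markers were at 15230 to 15798 CPM in the GFP libraries and 11989, 12308 and 9878 CPM in the Ezh2 libraries. Of the 6, 4 had an adjusted p under 0.05 without the fold threshold, all downward. The part of these cells in the MHC values was not tested.

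**Figure D4:**
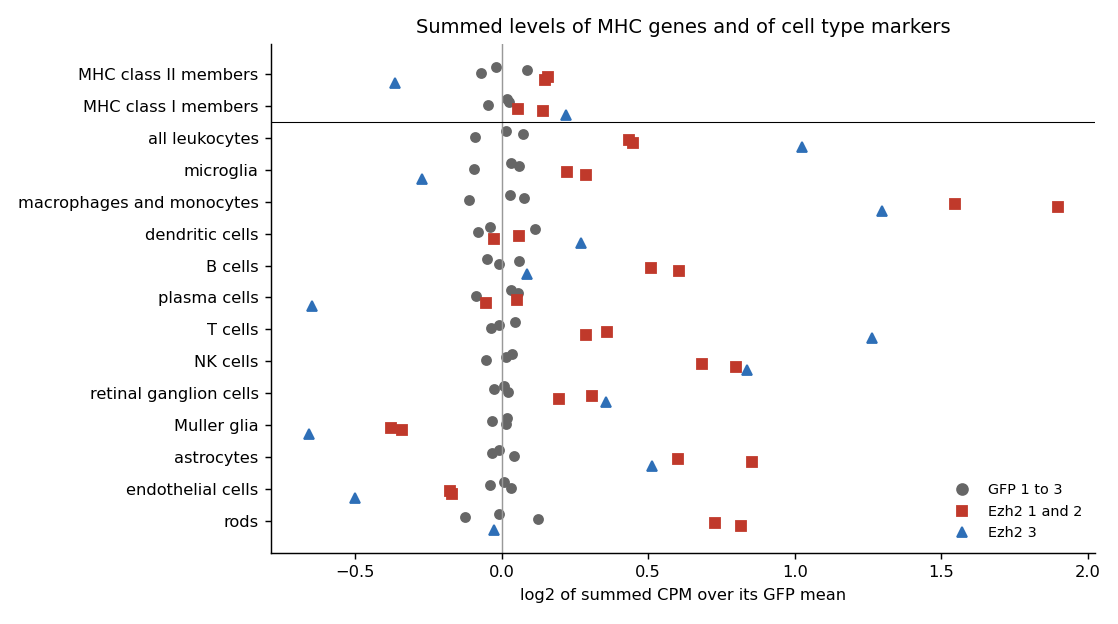
Summed CPM of 6 class II genes, of the 3 class I genes and of cell type marker lists in each library, as log2 over the GFP mean, for GFP replicates 1 to 3 (grey), Ezh2 replicates 1 and 2 (red) and Ezh2 replicate 3 (blue). The sums of microglia markers and of class II genes are both above the GFP libraries in Ezh2 replicates 1 and 2 and below them in Ezh2 replicate 3.

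By log2 CPM over the 6 libraries, the genes whose profile was most like the mean of the chains and *Cd74* were *Twf1*, *Cass4*, *Rab7b*, *Nars*, *Igkc*, *Basp1*, *Lair1*, *Slamf8*, *Ppfia4* and *Gmppb*, with Pearson's r from 0.985 to 0.996 among 13762 genes. Every gene's profile holds the same outlying library, Ezh2 replicate 3, and over 6 points these likenesses are a description. *Igkc*, the kappa light chain constant gene of antibodies, ran from 1172 CPM in Ezh2 replicate 3 to 2072 CPM in Ezh2 replicate 1. Of the 10 MHC genes, *H2-DMa* and *H2-DMb1* followed the profile at 0.879 and 0.777, *Ciita* at 0.606, and *H2-D1*, *B2m* and *H2-K1* at −0.06, −0.49 and −0.72.

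Beyond the 10 genes, 69 others in 8 lists of the presentation pathway were read, of which 67 were tested, 6 were called higher and 0 lower, where 2.45% and 1.27% of all tested genes were. The called genes were *Ctsb*, *Ctsd*, *Ifng*, *Socs3*, *Cd8a* and *Cd8b1*. None of the 4 other class II genes tested was called. *H2-Oa*, which restrains H2-DM, had a log2 fold change of −0.38 with an adjusted p of 0.0492, short of 1.5-fold. The DNA-binding partners of CIITA (*Rfx5*, *Rfxap*, *Rfxank*, *Nfya*, *Nfyb*, *Nfyc*, *Creb1*) had 0 calls among 7 and a median log2 fold change of 0.02.

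Endosomal processing had 2 called genes among 8. *Ctsb*, cathepsin B, was at 888 to 919 CPM in the GFP libraries and at 1626, 2053 and 1473 CPM in Ezh2 replicates 1 to 3. *Ctsd*, cathepsin D, was at 510 to 535 CPM and at 938, 1186 and 866 CPM. Both rose, by 1.04 on the log2 scale (SE 0.072 and 0.074), and both were called in all 6 libraries too. *Ctss*, cathepsin S, which cuts the invariant chain, was at 838 to 969 CPM in the GFP libraries and 1159, 1286 and 813 CPM in the Ezh2 libraries, with a log2 fold change of 0.42 that was not called. *Lgmn* and *Ifi30* likewise had 0.44 and 0.31. The adjusted p of *Ctss*, *Lgmn* and *Ifi30* was 0.00026, 9.3e-05 and 0.0024, so they fell short on the fold threshold alone. Without it, 6 of the 8 genes had an adjusted p under 0.05 upward and 0 downward. *Ctsb*, *Ctsd*, *Ctss*, *Lgmn* and *Ifi30* encode lysosomal enzymes with uses outside antigen presentation.

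Class I peptide supply and loading had 0 calls among 14 genes and a median log2 fold change of 0.11. The adjusted p was under 0.05 for 5 of them, all upward: the chaperones *Tapbp* (0.19) and *Calr* (0.24), the immunoproteasome subunits *Psmb8* (0.24) and *Psmb10* (0.24), and the proteasome activator *Psme2* (0.24). The peptide transporter genes *Tap1* and *Tap2* had −0.03 and 0.07, and *Nlrc5*, the class I transactivator, −0.10. The nonclassical class I genes had 0 calls among 11 tested. The adjusted p was under 0.05 for 2 of them, both downward: *H2-Q4* at −0.25 (adjusted p 0.0018) and *H2-Q6* at −0.40 (adjusted p 0.00013).

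Of 11 genes of the interferon gamma pathway, which induces *Ciita*, 2 were called higher. *Ifng* was at 2.88 to 3.95 CPM in the GFP libraries and at 5.78, 4.68 and 9.17 CPM in the Ezh2 libraries, with a log2 fold change of 0.69 ± 0.213 and an adjusted p of 0.0369. In all 6 libraries its adjusted p was 0.0794. *Socs3*, a feedback inhibitor of cytokine signalling, was at 96.5 to 107 CPM and at 182, 183 and 192 CPM. *Irf1*, a transcription factor of the pathway, had a log2 fold change of 0.07 and was not called. Costimulatory and checkpoint ligands had 0 calls among 8.

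Among the T cell coreceptors that bind MHC, both chains of CD8, which binds class I, rose. *Cd8a* was at 16.98 to 18.7 CPM in the GFP libraries and at 44.5, 46.2 and 37.9 CPM in the Ezh2 libraries, a log2 fold change of 1.38 ± 0.080. *Cd8b1* was at 10.6 to 11.9 CPM and at 27.8, 27.5 and 19.96 CPM, a log2 fold change of 1.31 ± 0.092. *Cd4*, the coreceptor for class II, was at 93.6 to 107 CPM and at 116, 106 and 153 CPM, with 0.13 and an adjusted p of 0.189. The groups overlapped for *Cd4* and did not for the CD8 genes. *Lag3*, which also binds class II, was at 49.4 to 58.0 CPM in the GFP libraries and at 49.3, 44.1 and 68.8 CPM in the Ezh2 libraries, with −0.21 and an adjusted p of 0.083.

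**Figure D5:**
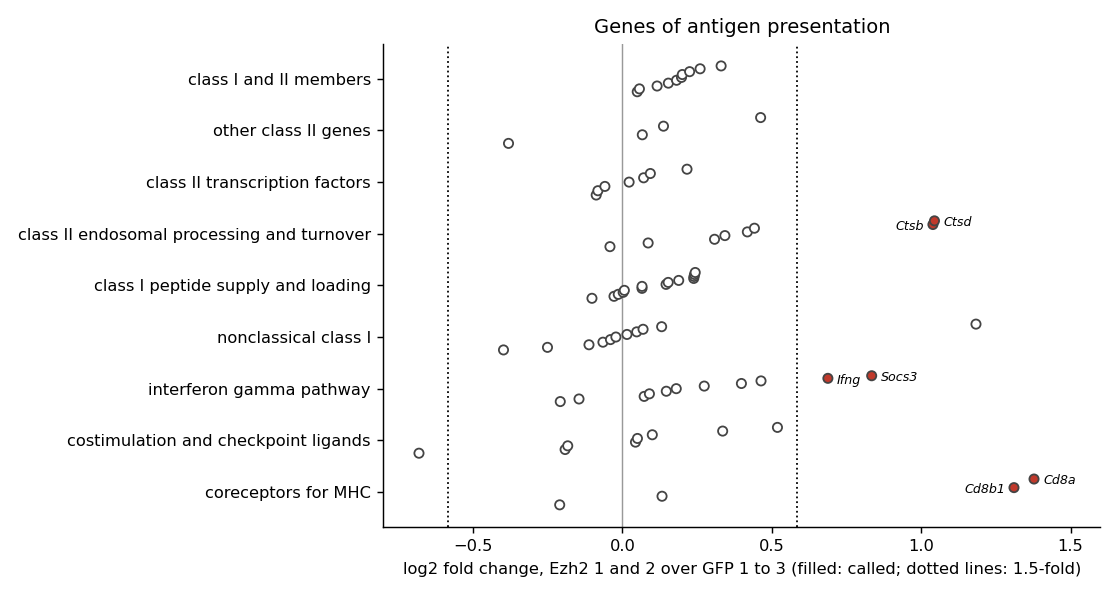
Log2 fold changes of the 10 MHC genes and of the pathway lists, Ezh2 replicates 1 and 2 over GFP replicates 1 to 3, 1 point per tested gene. Filled points are called genes, all to the right of the dotted 1.5-fold line, and the MHC genes cluster between 0.05 and 0.33.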

How the data were processed

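Total RNA of sorted retinal cells was sequenced from stranded libraries. The authors deposited a table of raw counts, 1 row per Ensembl gene and 1 column per library (6 in all). The submitters' processing notes name STAR 2.7.0d and GRCm38; the counting program, annotation release and strand setting are not given in the sources used here. All columns were matched to samples, 0 without one. Of 55573 identifiers, 55480 matched GENCODE M21, used for symbols, coordinates and exon length.

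GFP replicates 1 to 3 and Ezh2 replicates 1 and 2 were compared. Counts were filtered with filterByExpr, TMM-scaled and fitted with the default quasi-likelihood F test of edgeR 4.0.16 (R 4.3.3), two-sided, Benjamini-Hochberg adjusted over all tested genes. Intervals came from the F statistic. The fit was tested on simulated data. Alternatives tried were inclusion of Ezh2 replicate 3, omission of single libraries, a replicate block, DESeq2 1.42.0, limma-voom (limma 3.58.1), other scaling, filters and thresholds. After a first count of 754 called genes differed from an earlier one on these data, 16 combinations of options of that test were tried, giving 4 distinct counts; the default was kept and the others are given as alternatives chosen after seeing the data. Likeness was measured on log2 CPM (prior count 2) over genes with at least 100 counts on average. Named genes are the 10, the pathway and marker lists, and the 10 most alike. The genes and lists were chosen with earlier results of these data known. As a check of whether the replicate numbers pair the samples, the correlations of deviations of same-numbered libraries were −0.0045, −0.020 and −0.0099. This check cannot exclude pairing, because the outlying Ezh2 replicate 3 is part of the mean from which the Ezh2 deviations were taken. The values of 2 list genes are not reported here.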

Additional observations from a re-analysis of the deposited data

Results flagged for a closer look

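Ezh2 replicate 3, which the main comparison leaves out, held 3 of the 10 genes above every GFP library: *H2-K1* at 1663 CPM, *H2-D1* at 1291 CPM and *B2m* at 1192 CPM. These are the class I genes, and each was picked out because its value comes from a library outside the main comparison. Over all tested genes 31.9% lay above every GFP library in that library, so 3 of 10 is near the background share. *H2-D1* was also above every GFP library in Ezh2 replicates 1 and 2, whereas *H2-K1* and *B2m* overlapped the GFP values there.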

How the results depend on the processing

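The 754 called genes became 3330 without the fold threshold, 476 in all 6 libraries and 597 to 755 with each library left out. None of the 10 genes was called in any alternative that kept the fold threshold, 0 to 0 with each library left out, and 5 of them passed without it. Other pathway genes called higher went from 6 to 20 and called lower from 0 to 5 without the fold threshold, and to 5 to 6 higher with each library left out. With the replicate number as a block in all 6 libraries, 274 genes were called and *H2-Eb1* turned to −0.0085. Whether the numbers pair the samples is not known. Without Ezh2 replicate 2, *B2m* turned to −0.047, within a range of −0.047 to 0.14 over the libraries left out. The log2 ratio of class II chains to *B2m* was 0.12 higher in Ezh2 replicates 1 and 2 than in GFP, −0.10 with Ezh2 replicate 3, and 0.037 to 0.20 with each library left out. Of 180 values of single genes under alternatives, 173 kept direction and stayed not called, 5 passed only without the fold threshold and 2 reversed. None of the 10 genes was called in the main comparison, so no value could lose a call. The 173 therefore do not measure whether a change kept its size or its adjusted p. *H2-Aa*, at 0.20 in the main comparison and 0.04 in all 6 libraries, is counted among them. Options of the quasi-likelihood fit, chosen after seeing the data, gave 770 called genes (robust), 802 (newer method) and 792 (both) with 0 of the 10 genes called, but put 7 of the 10 under an adjusted p of 0.05 in place of 5, adding *H2-DMa* and *H2-DMb1*. DESeq2, limma-voom and the fit without a count filter put the same 7 genes under an adjusted p of 0.05. In those fits, in that order, *H2-DMa* was at 0.0403, 0.0451 and 0.0299 and *H2-DMb1* at 0.0441, 0.0451 and 0.0076. Some of the remaining alternatives took such values away. With the replicate block in 5 libraries the adjusted p was 0.111 for *H2-Aa*, 0.152 for *H2-Ab1* and 0.308 for *Cd74*. With single libraries left out, *H2-Aa* was at 0.0533 without Ezh2 replicate 2, 0.0565 without GFP replicate 1 and 0.0553 without GFP replicate 3. *H2-Ab1* was at 0.0533 without Ezh2 replicate 1, 0.0873 without GFP replicate 1 and 0.0809 without GFP replicate 3. *Cd74* was at 0.0894 to 0.172 in 4 of 5 such fits, all but that without GFP replicate 2. *Ciita* and *H2-D1* were under 0.05 in each of the 5. The cause of these shifts was not tested. With 2 Ezh2 libraries in the main comparison, the intervals rest on few libraries.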
